A study of Mus musculus with 10 samples.

Results

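Serpins are a superfamily of proteins that share one fold and include most of the serine protease inhibitors of blood plasma. The genes described here are 62 of the 52459 genes in the expression table whose symbol is Serpin followed by a clade letter and a number, with 5 Serpin pseudogenes set aside. They fall into 9 clades, with 25 members in clade A, 27 in clade B, 1 each in clades C, D, G and H, and 2 each in clades E, F and I. They were compared between 5 *MYC*-HCC and 5 *MYC*/*Twist1*-HCC tumors.

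An inhibitory serpin presents a flexible loop as bait. When a protease cuts the loop, the serpin snaps into a new shape and traps the enzyme in a covalent complex, so that each inhibitor molecule is used up once. Hepatocytes secrete most of the serpins of plasma, which hold back neutrophil elastase, the clotting cascade, plasmin and the first complement protease, and some members, such as the hormone carriers, inhibit nothing. Clade B serpins mostly stay inside cells, where they protect against the cell's own or a neighbor's proteases.

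RNA was sequenced from flash-frozen liver tumors of transgenic mice of the FVB/N background. In both groups the liver-enriched LAP promoter drove the transactivator tTA, which in turn drove a TRE-*MYC* transgene. Doxycycline kept the transgene silent until the mice were adult. The *MYC*/*Twist1*-HCC mice also carried TRE-*Twist1*/Luc, which added Twist1 and luciferase. The labels give no age, sex or litter of the tumor-bearing mice and do not say whether the tumors of a group came from separate animals, so p-values measure the spread between these tumors. Libraries 1 to 5 of *MYC*-HCC are numbered in column order, because their columns share one heading, and *MYC*/*Twist1*-HCC replicates 1 to 5 carry the numbers of their labels. Twist1 measured 0 to 0.29 FPKM (sequenced fragments scaled to gene length and library depth) in *MYC*-HCC, against 2.56, 26.05, 77.19, 1.62 and 2.21 FPKM across *MYC*/*Twist1*-HCC replicates 1 to 5.

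Library 4 of *MYC*-HCC stood apart from the other 9 libraries. Its summed FPKM for 10 enzymes of differentiated hepatocytes was 4185.57, against 237.78 to 497.54 in the other 4 *MYC*-HCC libraries and 283.71 to 992.74 in *MYC*/*Twist1*-HCC. Its Afp level, the fetal liver protein raised in many liver tumors, was 3.11 FPKM, against 735.79 to 1478.68 in the other 4. Of the other oncofetal markers, Dlk1 was at 0.01 FPKM there, against 31.33 to 49.28 in the other 4. Spink1 was at 0 FPKM, against 43.93 to 69.43, and Gpc3 at 0.28 FPKM, against 0.71 to 10.58. The fetal genes H19 and Igf2 were not low in library 4. The hepatocyte label was met in all 10 libraries, with Alb and 8 other secreted hepatocyte markers summing to at least 3615.45 FPKM. Depth was similar across libraries, at an estimated 19.17 to 23.77 M reads, so that 1 read on a model of 1 kb was worth 0.0421 to 0.0522 FPKM, and 0 pairs of libraries were identical. Fitted differences are therefore given with all 10 libraries and without library 4. That library was singled out after its values were seen, and the adjusted p of the fit without it does not allow for this choice. It lay above the other 4 *MYC*-HCC libraries for 23 of the 33 Serpin genes that reached 1 FPKM, so leaving it out raises their differences.

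With all 10 libraries, no Serpin gene passed the test, although most of those tested were higher in *MYC*/*Twist1*-HCC. A level of 0.5 FPKM or more in 5 or more libraries was needed for testing, and of the 27 members that had it 0 were called higher and 0 lower at an adjusted p under 0.05 (limma on log2(FPKM + 0.1), Benjamini-Hochberg adjustment over 12146 genes). Of all genes tested, 0.0247% were called higher and 0% lower, so the fit called almost nothing anywhere. At an unadjusted p under 0.05, 7 members were higher, beside 7.83% of all genes, and 1 was lower, beside 8.51%. The difference was positive for 18 of the 27 members, beside 45.9% of all genes, and its median was 0.37, against -0.04 over all genes. Serpinf2 was the 1 member whose groups did not overlap, with *MYC*/*Twist1*-HCC above, as for 2.35% of genes, and 0 members lay wholly below, as for 1.67%.

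Without *MYC*-HCC library 4, 5 Serpin genes were higher in *MYC*/*Twist1*-HCC and 0 were lower. They were the antitrypsin genes Serpina1d and Serpina1e, the acute phase inhibitor Serpina3n, antithrombin (Serpinc1) and heparin cofactor II (Serpind1). This count stands beside 4.33% of all genes called higher and 4.72% called lower. An unadjusted p under 0.05 was reached by 10 higher members and 1 lower member, against 12.8% and 18.3% of all genes. The groups did not overlap for 4 members, all higher (Serpina3n, Serpinc1, Serpinf2 and Serpinf1), beside 6.04% of genes higher and 9.64% lower. The median difference of the 27 members was then 0.57, against -0.06 over all genes, and 20 were positive, beside 45.3% of all genes. The 27 are not all members, since 35 others did not pass the filter on low values. With quality weights, which let limma give an atypical library less say, Serping1 joined the 5 and Serpinb6a was called lower, beside 8.3% of all genes higher and 12.1% lower. Quality weights without library 4 called 8 members higher and 1 lower, beside 9.48% and 13.6%. Leaving out any other single library, without weights, called no Serpin gene.

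**Figure D1:**
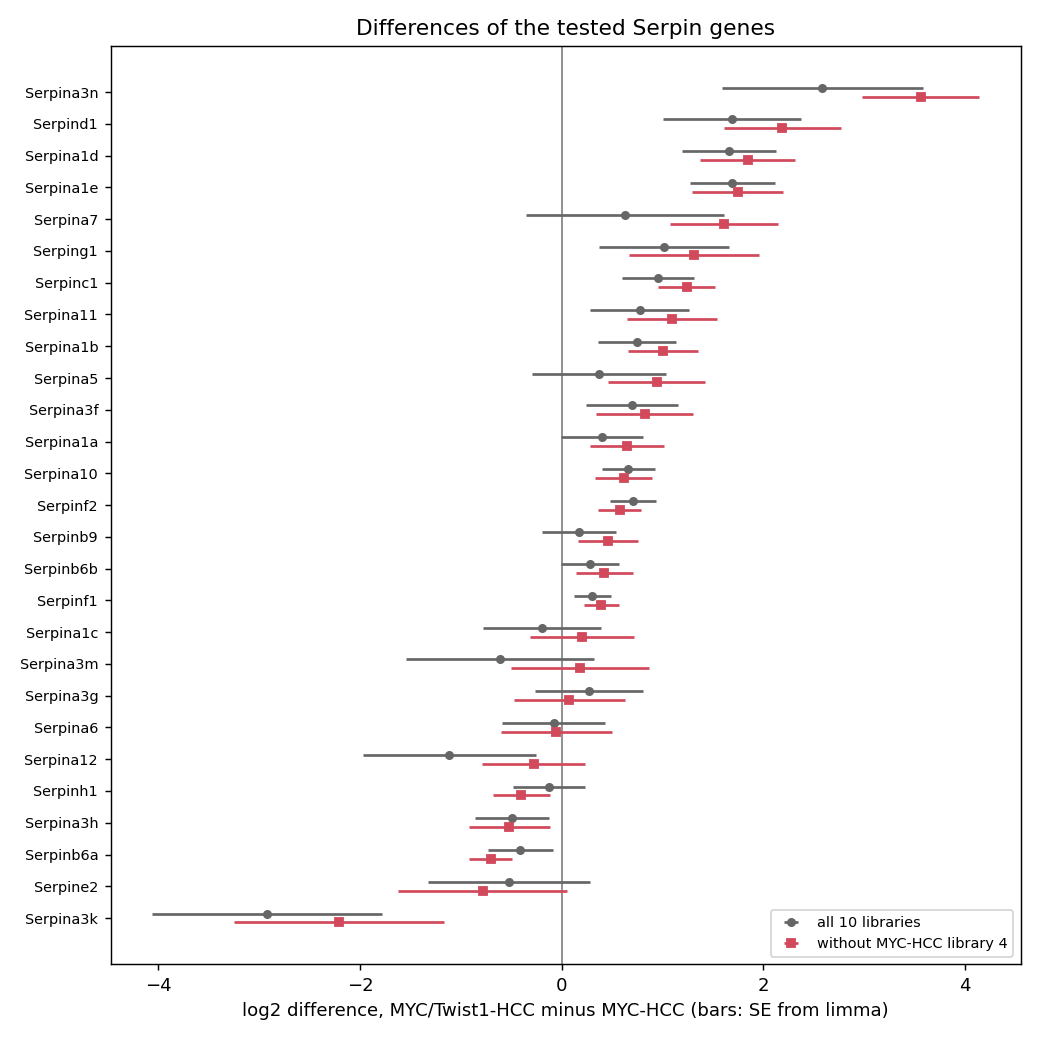
Differences of the 27 tested Serpin genes, as log2 of *MYC*/*Twist1*-HCC over *MYC*-HCC on the log2(FPKM + 0.1) scale, with bars of 1 SE from limma. Grey circles use all 10 libraries and red squares leave out *MYC*-HCC library 4; Serpina3n moves from 2.58 to 3.56 and Serpina3k stays at the negative end, at -2.92 and -2.21.

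The antitrypsins, which protect tissue from neutrophil elastase, are encoded by 1 gene in humans and by a tandem set in mice, Serpina1a to Serpina1e, on chromosome 12. Among them the scarcer ones, Serpina1d and Serpina1e, differed most between the groups and the most abundant one, Serpina1c, did not separate them. Serpina1d, at chr12:103763594-103773592 of GRCm38, measured 21.86, 7.09, 16.73, 32.56 and 32.04 FPKM in *MYC*-HCC libraries 1 to 5, against 59.54, 61.06, 61.35, 29.25 and 132.1 FPKM across *MYC*/*Twist1*-HCC replicates 1 to 5. Replicate 4 lay among the *MYC*-HCC libraries, below libraries 4 and 5, and the other 4 replicates lay above them all. Its log2 difference was 1.66 (SE 0.46, adjusted p = 0.157), and without library 4 it was 1.84 (SE 0.47, adjusted p = 0.0421), a 3.59-fold higher level. Serpina1e, at chr12:103946931-103958975, measured 4.66, 2.32, 3.42, 4.9 and 7.16 FPKM in *MYC*-HCC, against 13.55, 13.89, 13.55, 5.88 and 33.22 FPKM across *MYC*/*Twist1*-HCC. Here too only replicate 4 fell within the *MYC*-HCC range, under library 5. For Serpina1e the fitted log2 difference was 1.69 (SE 0.42, adjusted p = 0.136), and 1.75 (SE 0.45, adjusted p = 0.0429) without library 4, which is 3.36-fold.

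Serpina1c measured 122.59, 50.89, 160.05, 429.57 and 135.03 FPKM in *MYC*-HCC, against 189.87, 48.29, 148.85, 75.56 and 287 FPKM across *MYC*/*Twist1*-HCC. Library 4 was the highest of all 10 and the remaining values intermingled. Its log2 difference was -0.19 (SE 0.59, adjusted p = 0.893), and it was 0.21 without library 4, so its sign depended on that library. Serpina1b measured 89.98, 36.83, 74.95, 165.44 and 87.73 FPKM in *MYC*-HCC, against 151.03, 132.15, 163.09, 70.72 and 210.78 FPKM across *MYC*/*Twist1*-HCC. The groups overlapped through library 4 and replicate 4, with a log2 difference of 0.75 (SE 0.39, adjusted p = 0.355), and of 1.004 (adjusted p = 0.0828) without library 4. Serpina1a measured 50.91, 21.47, 50.44, 95.1 and 47.47 FPKM, against 75.26, 54.32, 74.64, 30.61 and 106.63 FPKM, with a log2 difference of 0.40 (adjusted p = 0.638), and of 0.65 (adjusted p = 0.259) without library 4. Serpina1f, which neighbors the set, did not exceed 0.09 FPKM.

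The mix of the 5 antitrypsin genes separated the groups with library 4 included. Serpina1d and Serpina1e together held 9.15%, 7.93%, 6.59%, 5.15% and 12.7% of the summed Serpina1a to Serpina1e FPKM in *MYC*-HCC libraries 1 to 5. In *MYC*/*Twist1*-HCC replicates 1 to 5 they held 14.9%, 24.2%, 16.2%, 16.6% and 21.5%. Serpina1c held 42.3% to 59.0% in *MYC*-HCC and 15.6% to 38.8% in *MYC*/*Twist1*-HCC. The shares of Serpina1a and Serpina1b overlapped. These shares were chosen after the values were seen and are given without a test. The sum of the 5 genes itself ranged from 118.6 to 727.57 FPKM in *MYC*-HCC, library 4 being highest, and from 212.02 to 769.73 FPKM in *MYC*/*Twist1*-HCC.

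The 5 genes are near copies, which limits how well their reads are told apart. In the GENCODE transcripts, windows of 100 bases that also occur in another gene made up 69.3% of Serpina1c, 49.9% of Serpina1a, 29.3% of Serpina1d, 20.6% of Serpina1b and 14.8% of Serpina1e. How the reads shared by copies were counted is not given in the sources used here, and the number of Serpina1 genes varies among inbred strains, so the split among them in FVB/N tumors is uncertain. Serpina1c also shares 31.5% of its model with B430119L08Rik on the opposite strand, which did not exceed 0.21 FPKM.

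The start regions of the copies are also much alike, and those of Serpina1c, Serpina1d and Serpina1e are shown because the first did not separate the groups while the others differed. They are the 250 bases before the annotated start in RefSeq (GRCm38.p6), read 5′ to 3′ on the minus strand of chromosome 12 at chr12:103904951-103905200, chr12:103773634-103773883 and chr12:103956898-103957147. Capitals mark GTTAAT, one arm of the palindromic site of HNF1, a liver factor known to bind the antitrypsin promoter.
Serpina1c: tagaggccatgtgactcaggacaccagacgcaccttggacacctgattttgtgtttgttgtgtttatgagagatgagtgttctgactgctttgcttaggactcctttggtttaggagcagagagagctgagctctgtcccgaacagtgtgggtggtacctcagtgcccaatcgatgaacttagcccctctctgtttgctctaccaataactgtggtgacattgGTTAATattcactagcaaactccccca
Serpina1d: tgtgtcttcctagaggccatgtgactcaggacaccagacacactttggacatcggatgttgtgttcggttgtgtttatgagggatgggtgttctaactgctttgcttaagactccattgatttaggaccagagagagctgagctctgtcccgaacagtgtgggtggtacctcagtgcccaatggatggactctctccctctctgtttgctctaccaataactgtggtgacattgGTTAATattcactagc
Serpina1e: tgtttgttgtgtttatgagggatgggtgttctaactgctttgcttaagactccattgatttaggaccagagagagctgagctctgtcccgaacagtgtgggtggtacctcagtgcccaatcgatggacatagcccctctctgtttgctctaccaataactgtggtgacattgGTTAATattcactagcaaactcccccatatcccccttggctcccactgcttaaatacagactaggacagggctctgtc
The letters occur once in each of the 3, with their first base at -27, -16 and -78 from the annotated start, inside a shared stretch that is offset because the annotated starts differ. Aligned over their shared part, Serpina1c and Serpina1d were 91.7% identical, Serpina1d and Serpina1e 96.3%, and the 10 pairs of the set 91.6% to 97.0%.

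Motifs were counted on both strands in the 250-base windows of the 53 members found in the RefSeq table, with the share of 32851 windows of all genes beside them. GTTAAT was in 11 of the 53, or 20.8%, and in 6.4% of all windows. All 5 Serpina1 genes carry it, and as their windows are near copies these 5 are not separate occurrences. Serpinb3b, Serpinb3d and Serpini2, at 0 FPKM in every library, carry it too. TTGCNNAA, the core read by C/EBP factors, was in 12, or 22.6%, against 9.6%, with the near copies Serpina1b, Serpina1d and Serpina1e among them. The E-box CANNTG was in 29, or 54.7%, against 66.2%. CATATG, an E-box form bound by Twist1, was in 4, or 7.5%, against 3.5%, and in 0 of the 21 tested members with a window. CACGTG, the E-box form bound by MYC, was in 0 of the 53, against 6.0%. CATATG and CACGTG are also CANNTG, and a match is a description of the letters only.

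The Serpina3 genes, at the other end of the chromosome 12 cluster, are a mouse expansion of the single human antichymotrypsin gene. Serpina3n, a secreted acute phase inhibitor of granzyme B and cathepsin G in mice, showed the largest positive difference of the 27 tested members. It lies at chr12:104406729-104414329 and measured 3.88, 0.72, 2.5, 89.81 and 10.16 FPKM in *MYC*-HCC, against 40.08, 34.45, 31.09, 25.44 and 54.76 FPKM across *MYC*/*Twist1*-HCC. Each *MYC*/*Twist1*-HCC replicate exceeded 4 of the 5 *MYC*-HCC libraries, and library 4 exceeded every replicate. With all libraries the log2 difference was 2.58 (SE 0.996, adjusted p = 0.252). Without library 4 it was 3.56 (SE 0.58, adjusted p = 0.021), an 11.8-fold higher level with no overlap. Serpina3n shares only 0.2% of its 100-base windows with other genes.

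Serpina3k, known as the kallikrein-binding protein, went the other way. At chr12:104338486-104346144, it measured 9.94, 2.01, 3.58, 90.11 and 42.68 FPKM in *MYC*-HCC, against 8.11, 0.14, 2.51, 1.86 and 1.1 FPKM across *MYC*/*Twist1*-HCC. Libraries 4 and 5 far exceeded every replicate, library 1 did so narrowly, and libraries 2 and 3 lay within the *MYC*/*Twist1*-HCC range. Its log2 difference was -2.92 (SE 1.14, adjusted p = 0.256), the largest negative one of the 27, and -2.21 (SE 1.04, adjusted p = 0.178) without library 4. The ratio of Serpina3n to Serpina3k was 0.238 to 0.997 in the 5 *MYC*-HCC libraries and 4.94, 246, 12.4, 13.7 and 49.8 in *MYC*/*Twist1*-HCC replicates 1 to 5. The 246 of replicate 2 is imprecise, since its Serpina3k level of 0.14 FPKM rested on an estimated 6.8 reads. Serpina3n held 21.6%, 9.22%, 25.1%, 32.8% and 15.4% of the summed Serpina3 FPKM in *MYC*-HCC libraries 1 to 5. It held 73.9%, 91.8%, 81.2%, 76.5% and 85.1% in the *MYC*/*Twist1*-HCC replicates, so this share separated the groups even with library 4. The ratio and the share were chosen after the values were seen and were not tested.

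**Figure D2:**
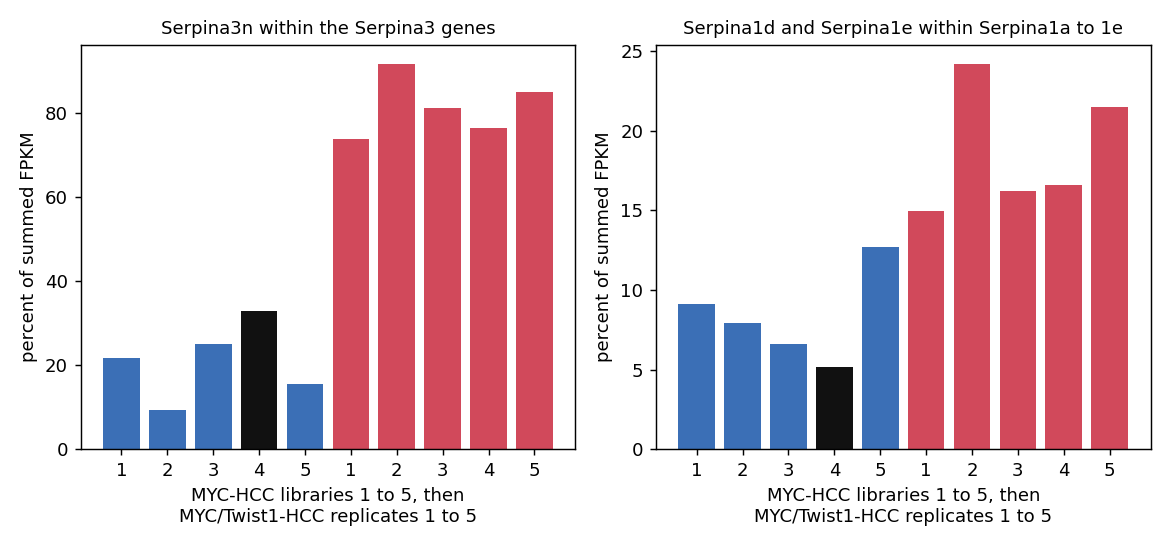
Share of summed FPKM by library, in percent: Serpina3n within the Serpina3 genes (left) and Serpina1d with Serpina1e within Serpina1a to Serpina1e (right). Bars are single libraries, *MYC*-HCC in blue with library 4 in black and *MYC*/*Twist1*-HCC in red; the left shares reach at most 32.8% in *MYC*-HCC and at least 73.9% in *MYC*/*Twist1*-HCC, the right ones 12.7% and 14.9%.

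The other Serpina3 genes were low in most libraries, and several were on in library 4 alone. Serpina3m, which shares 60 exon bases with Serpina3k, measured 1.42, 0.45, 0.58, 22.87 and 7.6 FPKM in *MYC*-HCC, against 2.19, 0.98, 2.63, 1.2 and 1.27 FPKM across *MYC*/*Twist1*-HCC. Libraries 4 and 5 were again the highest, and the log2 difference of -0.61 (SE 0.93, adjusted p = 0.769) turned to 0.19 without library 4. Serpina3a measured 59.05 FPKM in library 4, against 0.05 to 0.21 FPKM elsewhere. Serpina3b measured 2.79 FPKM there, against 0 to 0.31 FPKM elsewhere. Serpina3j was at 1.73 FPKM in library 4 and at 0 in the other 9. These 3 genes show how far a single library departed from the rest of its group, and the cause was not tested. Serpina3c, which did not pass the filter, measured 0.6, 0.06, 0.26, 4.9 and 1.92 FPKM in *MYC*-HCC, against 0.48, 0.04, 0.25, 0.1 and 0.24 FPKM across *MYC*/*Twist1*-HCC, with library 4 highest.

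Serpina3f, Serpina3g and Serpina3h lie between these genes and stayed between 0.26 and 3.8 FPKM in all 10 libraries, library 4 included. Serpina3g, an intracellular inhibitor of lysosomal cathepsins in mice, measured 0.74, 2.98, 1.24, 0.61 and 1 FPKM in *MYC*-HCC, against 1.1, 0.92, 0.51, 2.28 and 3.8 FPKM across *MYC*/*Twist1*-HCC. Library 4 was the lowest of its group, and the log2 difference was 0.27 (SE 0.54, adjusted p = 0.825), and 0.076 (adjusted p = 0.94) without that library. Serpina3f measured 0.29, 0.91, 0.27, 0.79 and 0.69 FPKM, against 0.66, 0.64, 0.49, 1.4 and 2.23 FPKM, with a log2 difference of 0.70 (SE 0.45, adjusted p = 0.449), and of 0.82 (adjusted p = 0.268) without library 4. Serpina3h, annotated as a transcribed pseudogene, measured 0.72, 0.42, 1.02, 0.73 and 1.28 FPKM, against 0.99, 0.26, 0.39, 0.55 and 0.69 FPKM, with a log2 difference of -0.49 (adjusted p = 0.507), and of -0.52 (adjusted p = 0.40) without library 4. The tumor groups overlapped for each of the 3 genes, and 3.6% to 4.6% of the 100-base windows of these genes occur in another gene. Serpina3i did not exceed 0.26 FPKM.

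The windows before Serpina3n and Serpina3c are shown because they are near copies while the genes differ in level. They span chr12:104406458-104406707 on the plus strand and chr12:104153873-104154122 on the minus strand of GRCm38.p6 (RefSeq), and capitals mark ATTAAC, the reverse complement of GTTAAT.
Serpina3n: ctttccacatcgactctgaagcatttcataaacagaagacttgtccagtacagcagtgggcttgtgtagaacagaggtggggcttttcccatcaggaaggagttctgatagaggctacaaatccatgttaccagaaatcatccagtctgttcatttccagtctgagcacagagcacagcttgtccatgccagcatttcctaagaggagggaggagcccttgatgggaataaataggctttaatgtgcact
Serpina3c: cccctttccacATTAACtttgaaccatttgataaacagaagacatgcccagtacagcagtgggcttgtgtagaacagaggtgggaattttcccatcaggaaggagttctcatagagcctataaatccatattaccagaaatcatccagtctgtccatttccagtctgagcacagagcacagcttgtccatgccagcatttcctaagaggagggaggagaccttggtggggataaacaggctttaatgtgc
They were 92.7% identical over the aligned part, against 53.7% to 72.0% for Serpina3n with the other Serpina3 genes in the table. The marked letters were in Serpina3c, at -239, and not in this window of Serpina3n. Median levels were 34.45 FPKM for Serpina3n and 0.24 FPKM for Serpina3c in *MYC*/*Twist1*-HCC.

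**Figure D3:**
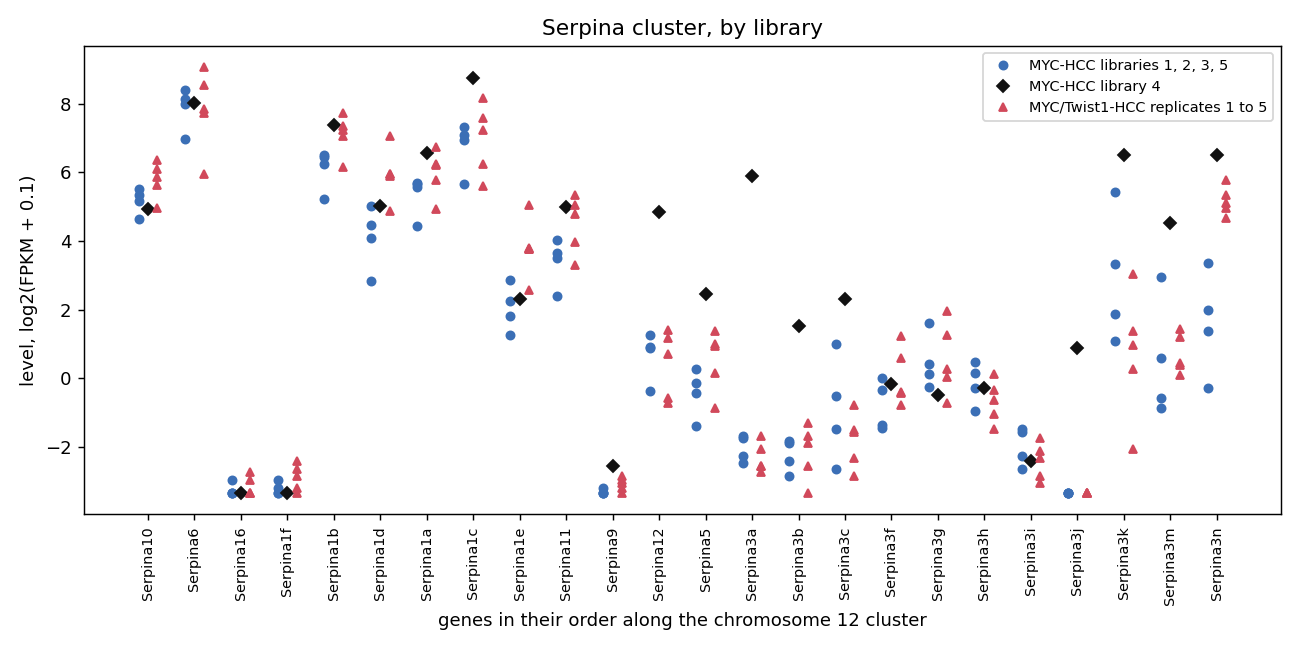
Levels of the 24 Serpina genes of chromosome 12 in their order along the cluster, as log2(FPKM + 0.1) for each library. Blue circles are *MYC*-HCC libraries 1, 2, 3 and 5, black diamonds library 4 and red triangles *MYC*/*Twist1*-HCC. Of the genes that reached 1 FPKM, library 4 stands above the other 9 for Serpina1c, Serpina12, Serpina5, Serpina3a, Serpina3b, Serpina3c, Serpina3j, Serpina3k, Serpina3m and Serpina3n.

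Among the inhibitors of the clotting cascade, antithrombin and heparin cofactor II, which block thrombin with the help of heparin-like sugars, were both higher in *MYC*/*Twist1*-HCC once library 4 was left out. Serpinc1, at chr1:160978585-161005863, measured 69.42, 34.1, 63.46, 151.97 and 69.02 FPKM in *MYC*-HCC, against 172.66, 97.46, 171.92, 92.5 and 162.36 FPKM across *MYC*/*Twist1*-HCC. Every replicate exceeded libraries 1, 2, 3 and 5, and library 4 lay within the *MYC*/*Twist1*-HCC range. For Serpinc1 the fitted log2 difference was 0.96 (SE 0.36, adjusted p = 0.245), and 1.24 (SE 0.28, adjusted p = 0.0333) without library 4, which is 2.36-fold. Serpinc1 shares 34.4% of its model with Zbtb37 on the opposite strand, and strandedness is not given in the sources used here, but Zbtb37 was at 0.48 to 1.13 FPKM in all libraries. Serpind1, at chr16:17331371-17343575, measured 36.38, 6.77, 22.1, 121.78 and 40.33 FPKM in *MYC*-HCC, against 170.64, 88.32, 104.99, 36.24 and 167.53 FPKM across *MYC*/*Twist1*-HCC. Replicate 4 fell within the *MYC*-HCC range and library 4 within that of *MYC*/*Twist1*-HCC. Its log2 difference was 1.69 (SE 0.68, adjusted p = 0.267), and 2.19 (SE 0.58, adjusted p = 0.0452) without library 4, which is 4.56-fold.

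Serpina10 encodes the protein Z-dependent inhibitor of factor Xa. It measured 35.54, 24.87, 40.67, 30.22 and 45.36 FPKM in *MYC*-HCC, against 58.06, 68.15, 49.14, 30.81 and 82.03 FPKM across *MYC*/*Twist1*-HCC, where 4 replicates exceeded every *MYC*-HCC library and replicate 4 did not. Its log2 difference was 0.66 (SE 0.26, adjusted p = 0.263), and 0.61 (adjusted p = 0.164) without library 4. Serpina5, the protein C inhibitor, measured 0.81, 0.28, 0.65, 5.35 and 1.11 FPKM, against 1.89, 0.45, 1.81, 1.02 and 2.52 FPKM. Library 4 was the highest of all, and the log2 difference of 0.37 (SE 0.66, adjusted p = 0.808) became 0.94 (SE 0.48, adjusted p = 0.212) without it.

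In clade F, Serpinf2, alpha-2-antiplasmin, the plasma inhibitor of plasmin, was the Serpin gene with the highest mean level and the only member with no overlap between the full groups. At chr11:75431732-75439591, it measured 393.21, 238.33, 341.63, 205.32 and 358.29 FPKM in *MYC*-HCC, against 475.82, 433.69, 430.79, 441.46 and 700.75 FPKM across *MYC*/*Twist1*-HCC. Library 4 was the lowest of all 10 and replicate 5 the highest. The *MYC*-HCC mean was 307 ± 81.1 FPKM (SD, n = 5), against a *MYC*/*Twist1*-HCC mean of 497 ± 116 FPKM (SD, n = 5). The log2 difference was 0.71 (SE 0.23, adjusted p = 0.203), and 0.57 (SE 0.21, adjusted p = 0.102) without library 4. Its neighbor Serpinf1, pigment epithelium-derived factor, a serpin with no known protease target that restrains blood vessel growth, lies at chr11:75409769-75422701. It measured 286.8, 183.93, 289.12, 342.15 and 264.2 FPKM in *MYC*-HCC, against 321.21, 299.52, 349.35, 347.98 and 340.13 FPKM across *MYC*/*Twist1*-HCC. Only library 4 overlapped the *MYC*/*Twist1*-HCC range, and the log2 difference was 0.31 (SE 0.18, adjusted p = 0.409), and 0.39 (adjusted p = 0.146) without it.

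In clade E, Serpine2, protease nexin-1, measured 4.46, 1.07, 1.32, 0.45 and 0.35 FPKM, against 0.29, 3.9, 0.14, 1.03 and 0.63 FPKM, with 1 high tumor in each group. Its log2 difference was -0.52 (SE 0.81, adjusted p = 0.773), and -0.78 (SE 0.84, adjusted p = 0.553) without library 4. Serpine3 did not exceed 0.06 FPKM.

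Serping1 encodes the C1 inhibitor, which stops the first complement proteases and plasma kallikrein. At chr2:84765387-84775444, it measured 19.37, 13.07, 21.52, 68.24 and 62.44 FPKM in *MYC*-HCC, against 119.67, 14.26, 80.75, 47.84 and 119.64 FPKM across *MYC*/*Twist1*-HCC. The groups overlapped, with replicate 2 as low as libraries 1 to 3. The log2 difference was 1.01 (SE 0.65, adjusted p = 0.443), and 1.31 (adjusted p = 0.191) without library 4.

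The hormone carriers Serpina6 and Serpina7 are clade A members that do not inhibit proteases. Serpina6, corticosteroid-binding globulin, was among the 3 Serpin genes of highest mean level and measured 336.47, 124.2, 280.04, 258.07 and 255.76 FPKM in *MYC*-HCC, against 373.74, 228.53, 532.58, 61.47 and 209.46 FPKM across *MYC*/*Twist1*-HCC. The *MYC*/*Twist1*-HCC values ran both below and above the *MYC*-HCC range, with a log2 difference of -0.08 (SE 0.51, adjusted p = 0.951), and of -0.051 (adjusted p = 0.959) without library 4. Serpina7, thyroxine-binding globulin on the X chromosome, measured 1.37, 0.37, 1.62, 42.89 and 3.36 FPKM, against 8.59, 2.05, 3.93, 4.44 and 4.44 FPKM. Library 4 was far above the other 9, and the log2 difference of 0.63 (SE 0.98, adjusted p = 0.776) became 1.61 (SE 0.54, adjusted p = 0.0785) without it. Serpina12, the adipokine vaspin, is not a hormone carrier. It measured 28.69 FPKM in library 4, against 0.68 to 2.32 FPKM in the rest of *MYC*-HCC and 0.51 to 2.53 FPKM across *MYC*/*Twist1*-HCC. The log2 difference was -1.11 (SE 0.86, adjusted p = 0.522), and -0.28 (SE 0.51, adjusted p = 0.745) without that library. Serpina11, a member of little known function, measured 11.24, 5.2, 12.52, 31.85 and 16.28 FPKM in *MYC*-HCC, against 33.2, 9.68, 27.72, 15.6 and 40.59 FPKM across *MYC*/*Twist1*-HCC. The groups overlapped, with a log2 difference of 0.77 (SE 0.49, adjusted p = 0.444), and of 1.09 (adjusted p = 0.126) without library 4. A read-through model, Gm28577, covers 40.8% of Serpina11 and was at 0 in all 10 libraries. Serpina9 and Serpina16 did not exceed 0.07 FPKM.

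Clade B, the intracellular serpins, has the most members, most of them with little or no RNA. Of its 27 genes, 22 stayed under 0.5 FPKM in all 10 libraries and 9 of these were at 0 throughout (Serpinb3a to Serpinb3d, Serpinb6d, Serpinb6e, Serpinb9d, Serpinb11 and Serpinb13). With Serpini2 of clade I, 10 members were at 0, and 3 reads, the limit that a count of 0 allows, would be 0.0577 to 0.129 FPKM for them. Clade B summed to 12.57 to 15.92 FPKM in *MYC*-HCC outside library 4, to 92.38 FPKM in library 4 and to 8.49 to 15.0 FPKM in *MYC*/*Twist1*-HCC. Serpinb6a, known in mice as an inhibitor of cathepsin G, was the clade B gene of highest level in each of the other 9 libraries.

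Serpinb6a, at chr13:33917918-34002794, measured 10.34, 11.51, 12.88, 4.14 and 11.83 FPKM in *MYC*-HCC, against 6.36, 5.11, 5.81, 8.52 and 11.03 FPKM across *MYC*/*Twist1*-HCC. Library 4 was the lowest of all, and libraries 1, 2, 3 and 5 exceeded 4 of the 5 replicates. The log2 difference was -0.41 (SE 0.32, adjusted p = 0.529), and -0.71 (SE 0.22, adjusted p = 0.0625) without library 4. Its model overlaps Nqo2, Ripk1 and 1110046J04Rik on the opposite strand, and Nqo2 was at 6.16 to 21.97 FPKM, so reads from these genes could be mixed. Serpinb1a, an inhibitor of neutrophil serine proteases, measured 0.25, 0.44, 0.45, 80.15 and 0.32 FPKM in *MYC*-HCC, against 3.08, 0.84, 0.32, 0.74 and 0.27 FPKM across *MYC*/*Twist1*-HCC. After library 4 its highest level was in replicate 1, the other 8 libraries stayed under 1 FPKM, and it did not pass the filter. Serpinb8 likewise measured 3.72 FPKM in library 4, against 0.02 to 0.12 FPKM elsewhere.

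Serpinb9, the inhibitor of granzyme B that shields cells from cytotoxic lymphocytes, measured 0.71, 0.6, 0.63, 2.05 and 0.84 FPKM in *MYC*-HCC, against 1.33, 0.59, 1.05, 0.72 and 1.52 FPKM across *MYC*/*Twist1*-HCC. The groups overlapped, with library 4 highest, and the log2 difference of 0.17 (SE 0.37, adjusted p = 0.84) became 0.46 (SE 0.29, adjusted p = 0.313) without it. Its target Gzmb ranged over 0.62 to 0.92 FPKM in *MYC*-HCC, against 0.94 to 2.87 FPKM across *MYC*/*Twist1*-HCC. Serpinb6b measured 1.17, 0.77, 1.66, 2.01 and 1.39 FPKM, against 2.53, 1.79, 1.19, 1.21 and 1.84 FPKM, with a log2 difference of 0.28 (adjusted p = 0.64), and of 0.42 (adjusted p = 0.334) without library 4. Among the clade B members with some reads, Serpinb10, Serpinb2 and Serpinb9b reached 0.38, 0.15 and 0.15 FPKM, and the other 10 did not exceed 0.12 FPKM. Serpinb10 is annotated as a polymorphic pseudogene and shares exon bases with Serpinb2.

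Serpinh1 encodes HSP47, a chaperone of the endoplasmic reticulum that folds collagen. It measured 45.89, 66.97, 44.79, 22.29 and 79.86 FPKM in *MYC*-HCC, against 70.87, 27.06, 35.31, 54.07 and 43.21 FPKM across *MYC*/*Twist1*-HCC. Library 4 was the lowest and library 5 the highest, with a log2 difference of -0.13 (SE 0.35, adjusted p = 0.883), and of -0.40 (SE 0.29, adjusted p = 0.365) without library 4. Summed markers of stellate cells and fibroblasts ran opposite to it in library 4, at 84.35 FPKM against 22.13 to 49.44 FPKM in the other 4 *MYC*-HCC libraries and 6.07 to 56.31 FPKM in *MYC*/*Twist1*-HCC. Serpini1, the neuroserpin of nerve cells, measured 0.11, 0.06, 0.08, 0.28 and 0.1 FPKM, against 0.1, 0.09, 0.12, 0.09 and 0.12 FPKM, a low level in every library that rested on an estimated 10.3 to 42.7 reads.

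**Figure D4:**
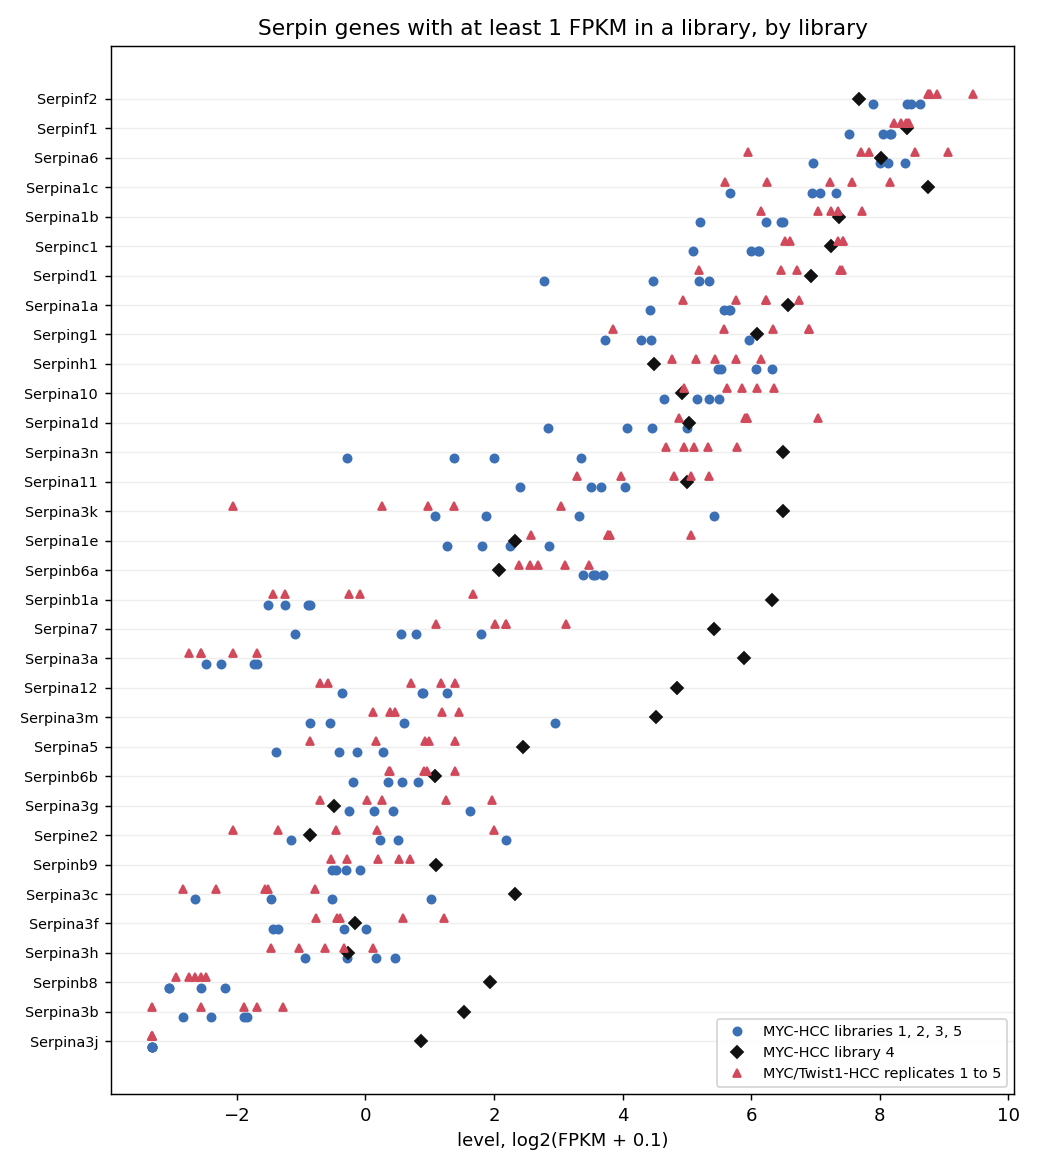
Levels of the 33 Serpin genes that reached 1 FPKM in any library, ordered by mean FPKM, as log2(FPKM + 0.1) by library. Blue circles are *MYC*-HCC libraries 1, 2, 3 and 5, black diamonds library 4 and red triangles *MYC*/*Twist1*-HCC; Serpinf2 spans 205.32 to 700.75 FPKM, and Serpina3a, Serpinb1a and Serpinb8 show library 4 far to the right of the other 9.

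As a family, the Serpin genes summed to 1569.56 ± 557.06 FPKM (SD, n = 5) in *MYC*-HCC, against 2082.35 ± 552.54 FPKM (SD, n = 5) across *MYC*/*Twist1*-HCC, or 0.337% to 0.866% of all FPKM. Without library 4 the *MYC*-HCC sum was 1361.18 ± 352.56 FPKM (SD, n = 4). Serpinf1, Serpinf2 and Serpina6 held 55.3% to 65.1% of that sum in *MYC*-HCC outside library 4, 33.5% in library 4 and 45.9% to 61.1% in *MYC*/*Twist1*-HCC. Library 4 held the highest value of all 10 for 14 of the 33 members above 1 FPKM, or 42.4%, as it did for 19.6% of all 12929 such genes. Within *MYC*-HCC it lay above the other 4 for 23 of the 33 and below them for 4, namely Serpinf2, Serpinb6a, Serpinh1 and Serpina3g. *MYC*/*Twist1*-HCC replicate 5 was highest for 9 of the 33, or 27.3%, against 14.8% of all genes.

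The chromosome clusters differed in how many of their genes were on. Of the 24 members in the clade A cluster, chr12:103614786-104414329, 20 reached 1 FPKM and 0 were at 0 throughout. Serpina3a, Serpina3b and Serpina3j reached it in library 4 alone. Of the 15 in the clade B cluster on chromosome 13, chr13:32842092-34002794, 4 reached 1 FPKM and 3 were at 0. Of the 12 in the clade B cluster on chromosome 1, chr1:106861173-107610484, only Serpinb8 reached 1 FPKM, in library 4, and 6 were at 0.

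The proteases that these serpins restrain, and other plasma inhibitors, were described from the same fit. With all 10 libraries 0 genes of any list passed. Without library 4, 4 of 8 clotting proteases were called higher (F2, F11, F12 and Proc), with 0 lower and a median difference of 1.08, beside 4.33% of all genes called higher and 4.72% called lower in that fit. F11, clotting factor XI, measured 1.3, 0.27, 1.02, 5.05 and 2.54 FPKM in *MYC*-HCC, against 22.26, 16.44, 13.02, 5.71 and 17.14 FPKM across *MYC*/*Twist1*-HCC, with no overlap. F11 differed by 3.18 on the log2 scale (SE 0.63, adjusted p = 0.091), and by 3.62 (SE 0.54, adjusted p = 0.0201) without library 4. A list of fibrinolysis proteases also held the HGF activator, Hgfac, which does not act in fibrinolysis. Of its 3 tested genes 2 were higher, Plg and Hgfac, with a median of 1.53, the value of Hgfac itself. Plau was not, with a log2 difference of 0.0034 (adjusted p = 0.994) without library 4. Plg, which encodes plasminogen, the zymogen whose active form Serpinf2 blocks, differed by 1.85 on the log2 scale (SE 0.47, adjusted p = 0.141) with all libraries and by 2.12 (SE 0.44, adjusted p = 0.0285) without library 4. Of 8 complement proteases 4 were higher (C1s1, C2, Masp1 and Masp2), with a median of 1.07. Of 17 other plasma inhibitors tested 7 were higher (Ahsg, Fetub, Itih3, Itih4, Kng1, Kng2 and Tfpi), with a median of 1.52. The Serpin median in that fit, 0.57, and the median of all genes, -0.06, stand beside these, and the 4.33% of all genes called higher is the background of each of these counts.

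The other lists of proteases, receptors and factors had 1 or 0 calls in each direction without library 4, and 0 with all 10 libraries. Beside these counts, 4.33% of all genes were called higher and 4.72% lower without library 4. Of the granulocyte and mast cell proteases, a list that also holds granzymes, 1 of 3 tested was higher, namely Gzmb, the target of Serpinb9. Prtn3 was not, with a log2 difference of -0.63 (adjusted p = 0.405) without library 4. Elane, the neutrophil elastase that antitrypsins hold back, and Ctsg did not pass the filter. Elane was at 0 to 0.11 FPKM in *MYC*-HCC, against 0.14 to 15.19 FPKM across *MYC*/*Twist1*-HCC. Of 5 lysosomal cysteine proteases 0 were called. Of 5 transmembrane and kallikrein proteases tested, St14 was the 1 lower. Of 7 clearance receptors and cofactors tested, Lrp1, which takes up serpin complexes, was the 1 higher. Of 13 liver transcription factors Stat3, a driver of acute phase genes, was the 1 higher, with a log2 difference of 1.03 (adjusted p = 0.0344) without library 4 and 0.78 (adjusted p = 0.254) with it.

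Hepatocyte markers and neutrophil markers also differed between these groups of tumors. The 9 hepatocyte markers measured summed to 3615.45 to 8098.59 FPKM in *MYC*-HCC outside library 4, to 14064.37 FPKM in library 4 and to 8991.29 to 24190.18 FPKM in *MYC*/*Twist1*-HCC, and 0 of the 9 were at 0 in any library. Of the 9, 7 were higher at an unadjusted p under 0.05, beside 7.83% of all genes, and without library 4 Ahsg, Alb, Apoa1 and Fgb were called higher, beside 4.33%. Serpinc1, Serpind1, Serpinf2, Serping1 and Serpina10 summed to 317.14 to 577.53 FPKM in *MYC*-HCC and to 648.85 to 1232.31 FPKM in *MYC*/*Twist1*-HCC. This separation rests on Serpinf2, which held 35.6% to 75.1% of the sum in *MYC*-HCC and 47.7% to 68.0% in *MYC*/*Twist1*-HCC. Without it the other 4 genes summed to 78.81 to 372.21 FPKM in *MYC*-HCC, library 4 being highest, and to 207.39 to 531.56 FPKM in *MYC*/*Twist1*-HCC, and the groups overlapped. The 5 genes were picked after their values were seen, and Serpina5 is not among them. In bulk tumors, fewer cells of a type and less RNA per cell cannot be told apart, and the part of hepatocyte content in the Serpin differences was not tested.

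**Figure D5:**
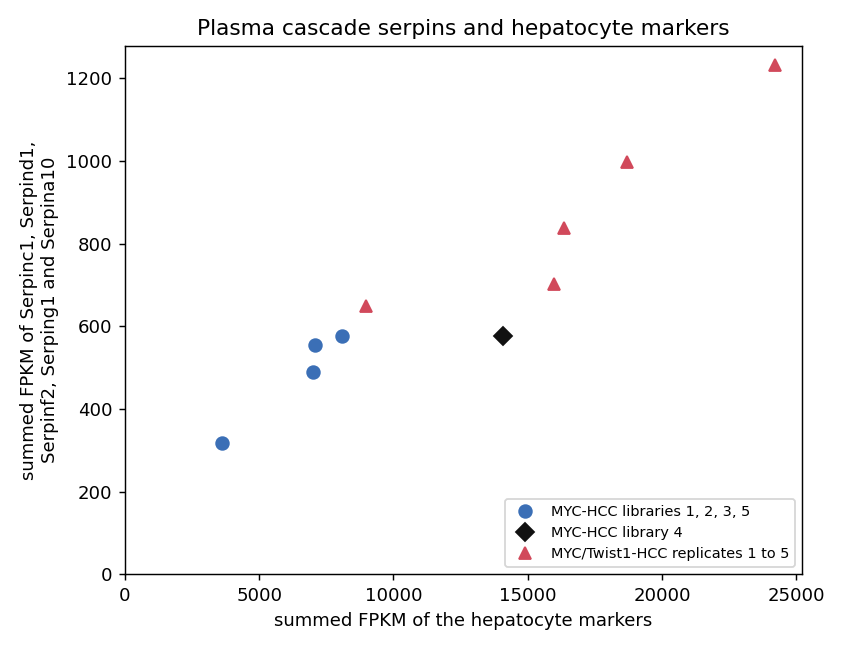
Summed FPKM of 5 serpins of the plasma cascades (vertical axis) against the summed FPKM of 9 hepatocyte markers (horizontal axis), 1 point per library and both axes from 0. *MYC*/*Twist1*-HCC (red triangles) lies at 648.85 or above on the vertical axis and *MYC*-HCC (blue circles, library 4 as a black diamond) at 577.53 or below; library 4 has a hepatocyte sum of 14064.37, and the gap between the groups rests on Serpinf2.

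The 8 neutrophil markers summed to 2.64 to 8.68 FPKM in *MYC*-HCC and to 15.14 to 643.83 FPKM in *MYC*/*Twist1*-HCC, and Ly6g was at 0 in 4 libraries. Replicate 1 had the highest sum and the most Serpinb1a of its group, while replicate 5 had the lowest neutrophil sum and the highest sum of Serpin genes, 2724.08 FPKM. Of the 8 markers 6 passed the filter, Camp and Retnlg only through the *MYC*/*Twist1*-HCC libraries where they were high, so no count of calls is given. Macrophage markers summed to 191.96 to 562.83 FPKM in *MYC*-HCC and to 283.37 to 859.67 FPKM in *MYC*/*Twist1*-HCC, with overlap. Platelet markers summed to 0.7 to 1.71 FPKM in *MYC*-HCC and to 0.85 to 42.17 FPKM in *MYC*/*Twist1*-HCC. Endothelial markers summed to 9.4 to 13.93 FPKM in *MYC*-HCC outside library 4, to 60.49 FPKM in library 4 and to 10.73 to 35.3 FPKM in *MYC*/*Twist1*-HCC, with 0 of 5 tested called. Of macrophage, T and NK cell, B cell, stellate cell, cholangiocyte and differentiated enzyme markers 0 were called without library 4, and of 6 oncofetal markers Igf2 was the 1 higher. Pancreas and squamous markers summed to at most 0.38 and 0.31 FPKM. The part of these cells in the Serpin values was not tested.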

How the data were processed

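Total RNA of 5 *MYC*-HCC and 5 *MYC*/*Twist1*-HCC tumors was sequenced as single-end reads. The authors deposited one table of FPKM, rounded to 2 decimals. According to the submitters' notes the reads were trimmed with Trimmomatic, aligned to mm10 with STAR, processed with Picard and counted with featureCounts, with DESeq2 for comparison, whereas the methods name RSEM. Depth was estimated from genes with models under 150 bp, where 99.5% to 100% of values came to whole reads within 0.1 read.

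The test was limma (version 3.58.1, R 4.3.3) on log2(FPKM + 0.1), with moderated variances and a trend, two-sided. It ran over the 12146 genes that reached 0.5 FPKM in 5 or more libraries (Benjamini-Hochberg, threshold 0.05). A fold change is on that scale and understates the change of low genes. Python 3.11.15 with pandas 2.3.3, numpy 2.4.6, Biopython 1.88 and matplotlib 3.10.9 did the rest. Gene models are from GENCODE vM21 and start windows from RefSeq (GRCm38.p6).

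The members and the 22 lists were chosen with earlier results of these data known, and 1 gene whose symbol fits is not reported here. Values by library are given for the 12 tested members of smallest p, the 2 of highest mean per clade, those without overlap, the Serpina1, Serpina3, Serpinb1, Serpinb6 and Serpinb9 genes and those under the filter that reach 1 FPKM, and for up to 3 genes of a list. Serpina5, Serpina7 and Serpina12 are given beyond that rule, chosen after their values were seen. The alternatives were an added 1 or 0.01, the filter dropped or replaced by a mean of 1 FPKM, median-ratio and quantile scaling, no trend, quality weights and each library left out. Quality weights without library 4 were added after seeing the data, and library 4 was also singled out after seeing them.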

Additional observations from a re-analysis of the deposited data

Results flagged for a closer look

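The groups examined were 59 sets of 5 libraries, 1 per Serpin gene and tumor group with a highest value of at least 1 FPKM. In 16 of them the highest library was set apart from the rest by Dixon's test at the 95% level. That level assumes normal values and FPKM were used untransformed, so the flags are a description without a chance rate. In *MYC*-HCC, Serpina3a, Serpina3b, Serpina3j, Serpinb1a, Serpinb8 and Serpinb9 were examined only because library 4 was high. Serpinb1a in *MYC*/*Twist1*-HCC was examined only through replicate 1. Of the 16, 11 were *MYC*-HCC library 4: Serpina1c at 429.57 FPKM, Serpina3n at 89.81 FPKM, Serpinb1a at 80.15 FPKM, Serpina3a at 59.05 FPKM, Serpina7 at 42.89 FPKM, Serpina12 at 28.69 FPKM, Serpina5 at 5.35 FPKM, Serpinb8 at 3.72 FPKM, Serpina3b at 2.79 FPKM, Serpinb9 at 2.05 FPKM and Serpina3j at 1.73 FPKM. The other 5 were spread over 5 libraries. Serpine2 stood apart in *MYC*-HCC library 1 at 4.46 FPKM and in *MYC*/*Twist1*-HCC replicate 2 at 3.9 FPKM. Serpina3g was high in *MYC*-HCC library 2, at 2.98 FPKM. In *MYC*/*Twist1*-HCC, replicate 1 was high for Serpinb1a, at 3.08 FPKM, and replicate 5 for Serpinf2, at 700.75 FPKM.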

How the results depend on the processing

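The count of Serpin genes called was 0 higher and 0 lower with all 10 libraries and with an added 1 or 0.01, the filter dropped or replaced by a mean of 1 FPKM, median-ratio or quantile scaling and no variance trend. With library quality weights, which gave *MYC*-HCC library 4 a weight of 0.184, it was 6 higher (the 5 called without that library and Serping1, adjusted p = 0.0499) and 1 lower (Serpinb6a, adjusted p = 0.037). Leaving out each library in turn gave 0 to 5 higher and 0 lower, and the 5 came from leaving out library 4. Quality weights without library 4 gave 8 higher, Serpina7 and Serpina11 being added, and 1 lower. Signs turned only for members with an adjusted p above 0.6 in the fit that turned them. Serpina3m had a log2 difference of 0.17 with quality weights, 0.19 without library 4 and 0.30 with both. Serpina1c had 0.10, 0.21 and 0.15 under the same 3, and 0.15 without *MYC*/*Twist1*-HCC replicate 2. Over the fits that leave out 1 library, the log2 difference ran from -1.16 to 0.19 for Serpina3m, from -0.56 to 0.21 for Serpina1c, from -0.019 to 1.61 for Serpina7 and from -0.019 to 0.94 for Serpina5, both lowest without *MYC*-HCC library 2, from -0.08 to 0.61 for Serpina3g, lowest without replicate 5, from -0.40 to 0.060 for Serpinh1, which was also positive without replicate 2 (0.046), and from -0.39 to 0.39 for Serpina6, positive without *MYC*-HCC library 1 (0.044) and replicate 4. The cause of these changes was not tested. No paired analysis was possible because the *MYC*-HCC columns carry no replicate number. Low genes are limited by depth, since 1 read on a model of 1 kb is worth 0.0421 to 0.0522 FPKM, beside an added 0.1.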
